A study of Mus musculus with 15 samples.

Results

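The genes described here are 10 genes of the circadian clock: Arntl, Clock, Npas2, Per1, Per2, Per3, Cry1, Nr1d1, Nr1d2 and Dbp. They were taken by name from a table of RNA sequencing counts for 18804 genes, and all 10 had enough counts to be tested. The cells were white adipocytes differentiated in culture from mesenchymal stem cells of C57BL/6J mice, progenitors that the study isolated from the ear. Day 0 cells stayed at 37°C, day 1 cells were moved to 31°C on day 15 of culture, and day 12 cells were moved on day 4. All 3 groups had 5 libraries, received the same induction mixture with dexamethasone, methylisobutylxanthine, insulin and troglitazone (rosiglitazone in a passage of the study's methods), and were harvested on day 16. Every cell was therefore of the same culture age, and the groups differed in how long they were kept at 31°C and in the day of the move. The labels do not say whether the libraries came from separate mice or separate dishes, so p-values measure the spread between these libraries, which may be technical.

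The clock is a transcriptional loop that runs in nearly every cell. BMAL1, the protein of Arntl, pairs with CLOCK or with its relative NPAS2 and switches on genes that carry E-boxes, among them the Per, Cry, Nr1d1, Nr1d2 and Dbp genes. PER and CRY proteins return to the nucleus and block that pair, while REV-ERBα and REV-ERBβ, the nuclear receptors made by Nr1d1 and Nr1d2, repress Arntl and Npas2 through elements that the ROR receptors use to activate them. DBP is a PAR bZIP factor that binds D-boxes and carries the rhythm to other genes. In adipose tissue the clock is known for timing lipolysis and adipokine release, and in cultured cells it is reset by serum, by cAMP and by glucocorticoid.

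Each group was sampled at a single moment. Neither the hour of harvest nor the time since the last feeding is given in the sources used here; cells were fed every 2 days from day 4. A different clock phase, a weaker or unsynchronised rhythm and a different average level cannot be told apart in these groups, and in bulk samples fewer cells of a type and less RNA per cell cannot be told apart either. Library totals lay between 64.65 M and 133.3 M counts (M, mega), and a level in CPM is a library's count of a gene divided by its TMM-adjusted total. Adipocyte markers fitted the label: all 8 were detected, and their summed level was 4386 to 5010 CPM at day 0, 5319 to 5899 CPM at day 1 and 4685 to 5256 CPM at day 12, where 1 was called higher and 3 lower. Stromal progenitor markers summed to 1317 to 1592 CPM over all libraries, with 2 of 6 called lower at day 12. The 4 cartilage markers summed to 3671 to 4403 CPM at day 0 and 3905 to 4062 CPM at day 1. At day 12 they summed to 1128 to 1222 CPM, with 3 of 4 called lower. Comp made up most of these sums, with means of 3717, 3708 and 918.9 CPM at days 0, 1 and 12. Col2a1 went the other way at day 12, with a log2 fold change of 0.29 (edgeR adjusted p = 0.000635), not called. Sums of the 4 endothelial, 3 keratinocyte, 2 skeletal muscle and 3 brown adipocyte markers stayed at or below 1.72 CPM, and that of the 4 macrophage markers at or below 13 CPM. No marker was at 0 in every library, and the part of these markers in the clock gene results was not tested.

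Promoter windows show which clock elements the members carry close to their start sites. RefSeq windows from 250 bases before to 50 bases after the start (GRCm38.p6) were found for 9 of the 10 members, in 13 windows, and not for Per2. They were searched on both strands for the E-box (CACGTG), the E′-box (CACGTT), the D-box (TTATGNAA), the core of the ROR and REV-ERB element (TAGGTCA) and the cAMP response element (TGACGTCA), and no matches shared a base. An E-box stood in 2 of the 13 windows, against 7.15% of all 32851 windows, an E′-box in 2 (4.68% of all windows), a D-box in 2 (3.38%), the ROR core in 1 (2.61%) and the cAMP element in 0 (1.79%). A match is a run of letters and not a site shown to be in use. The stretches that hold the matches are printed 5′ to 3′ on the gene's strand with the matched letters in capitals. They are chr10:85185084-85185158 (−) of Cry1, with an E′-box at position -79 and an E-box at -60 from the start, chr11:69098758-69098948 (+) of Per1, with an E-box at -166 and a D-box at -24, chr4:151044791-151044895 (−) of Per3, with D-boxes at -205 and -158, chr11:98775378-98775430 (−) of Nr1d1, with an E′-box at -28, and chr7:113207530-113207559 (+) of Arntl, with the ROR core at 30.
Cry1: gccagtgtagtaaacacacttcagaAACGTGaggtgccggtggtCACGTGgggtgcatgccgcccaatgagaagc
Per1: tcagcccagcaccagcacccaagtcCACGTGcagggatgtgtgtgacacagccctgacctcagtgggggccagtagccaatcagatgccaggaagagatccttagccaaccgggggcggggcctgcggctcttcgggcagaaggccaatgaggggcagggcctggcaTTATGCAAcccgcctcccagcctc
Per3: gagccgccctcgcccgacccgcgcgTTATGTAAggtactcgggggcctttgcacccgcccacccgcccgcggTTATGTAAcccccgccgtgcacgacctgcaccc
Nr1d1: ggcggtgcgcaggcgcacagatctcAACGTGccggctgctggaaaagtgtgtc
Arntl: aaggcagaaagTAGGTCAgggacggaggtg

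At day 1 Cry1, a repressor of the loop, rose and Npas2, an activator, fell. At day 12 Npas2, Nr1d1 and Dbp were called lower and 0 members higher. On scaling to 4 reference genes Npas2 (0.08) and Nr1d1 (0.16) turned, Dbp (-0.296) lost its call and 0 members were called lower. Between day 1 and day 12 Per1, Per2, Cry1 and Nr1d1 fell, but with that scaling Per1 (0.20), Per2 (0.16) and Cry1 (0.11) turned and Nr1d1 (-0.0817, edgeR adjusted p = 0.122) lost its call. A gene was called when the quasi-likelihood test of edgeR gave a Benjamini-Hochberg adjusted p under 0.05 over the 14293 genes tested and the fold change was over 1.5. At day 1, 1 of 10 members was called higher, where 7.71% of all genes were, and 1 lower, where 13.4% were. At day 12, 0 of 10 were called higher (13% of all genes) and 3 lower (16.2%). Day 12 against day 1 gave 0 higher (10.6%) and 4 lower (8.53%). For both counts of 0, edgeR gave 2 members higher at an unadjusted and an adjusted p under 0.05, and DESeq2 called 0. These were Cry1 (0.46) and Arntl (0.20) at day 12 and Npas2 (0.57) and Arntl (0.48) between the days, all under the fold limit.

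The adjusted p alone separated little here. With no fold limit, 10 of 10 members passed at day 1 and at day 12, as did 71.5% and 76.6% of all genes, and 9 of 10 passed for day 12 against day 1, as did 67.2%. The median log2 fold change of the members was 0.21 at day 1, -0.21 at day 12 and -0.55 for day 12 against day 1, and that of all genes was -0.01, 0.01 and 0.01. Both comparisons with day 0 share the day 0 libraries, so the comparison of day 12 with day 1 is the test of the difference between them. Scaling by total counts moved the median of all genes to 0.21 at day 12 and split its calls into 2982 higher and 1668 lower in place of 1852 and 2320. Scaling to Hprt, Tbp, Gapdh and B2m, the genes of the study's PCR reference set found in the table, moved it to 0.85. With TMM scaling Gapdh (-0.70) and B2m (-2.12) were themselves called lower at day 12. A change of scaling adds nearly the same amount to the log2 fold change of every gene, so values relative to the median of all genes (-0.69 for Nr1d1 and -1.15 for Dbp at day 12) stay nearly fixed by construction and say nothing of which scaling is right. Fold changes below are from TMM scaling, which left the median near 0. Values of the members that cross the limit with total counts are named with the gene. For genes of the other lists they are not given, and calls near the limit may not hold with that scaling.

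**Figure D1:**
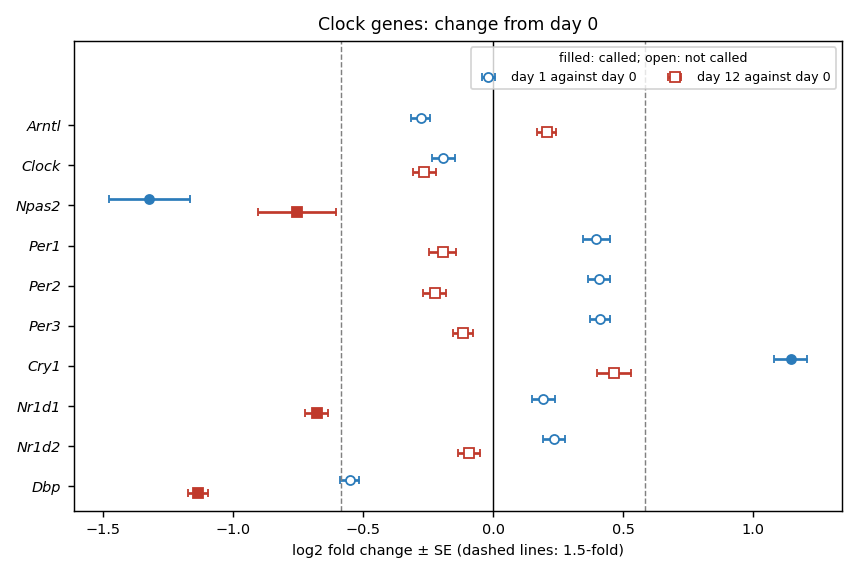
Log2 fold change from day 0 (x axis, with SE) of the 10 clock genes at day 1 (circles) and day 12 (squares). Filled symbols were called and open ones were not, and dashed lines mark 1.5-fold. The 3 Per genes sit near 0.4 at day 1, inside the limit, while Cry1 at 1.14 and Npas2 at -1.32 lie outside it.

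Levels between genes were compared as CPM per kb of exon. In day 0 libraries Nr1d1 (44 ± 3 CPM per kb, SD, n = 5) and Dbp (43.8 ± 1.66) were the most abundant members and overlapped each other. Nr1d2 followed at 12.3 ± 0.394 CPM per kb, then Per3 at 9.89 ± 0.616. At day 1 Nr1d2 and Per3 overlapped. Within day 0 Per1 (7.73 ± 0.726), Clock (7.17 ± 0.231) and Arntl (6.72 ± 0.227) overlapped their neighbours, and Per2 (3.22 ± 0.142), Cry1 (2.39 ± 0.271) and Npas2 (0.693 ± 0.0528) did not. Nr1d1, Dbp, Nr1d2 and Per3 kept the first 4 places in this order in all 3 groups and Npas2 the last. Places in the middle moved: Arntl stood below Per1 and Clock at day 0, and at day 12 its level of 7.74 ± 0.107 CPM per kb lay above both without overlap, and Cry1 stood above Per2 at day 1 and at day 12 but below it at day 0.

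**Figure D2:**
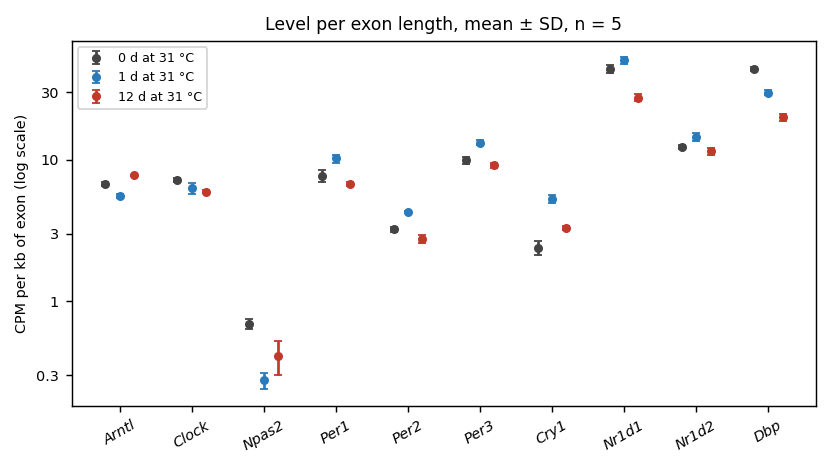
Level of each clock gene in CPM per kb of exon (y axis, log scale), as the mean with SD of 5 libraries at 0, 1 and 12 days at 31°C. Nr1d1 and Dbp lie highest in each group, and Npas2 lies below 1 CPM per kb in each.

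The activators were measured most precisely for Arntl (ENSMUSG00000055116, chromosome 7, 113207465 to 113314126 of GRCm38). Its levels were 20.04, 20.4, 21.3, 20.3 and 21.7 CPM at day 0, 17.2, 17.3, 16.8, 16.2 and 17.9 CPM at day 1, and 23.5, 23.7, 24.1, 24.2 and 24.2 CPM at day 12. The groups did not overlap, with day 1 lowest and day 12 highest. Its log2 fold change was -0.28 ± 0.04 (SE, edgeR adjusted p = 4.16e-07) at day 1, 0.20 ± 0.04 (2.36e-05) at day 12 and 0.48 ± 0.04 (4.55e-11) between the days, so each difference exceeded the spread between libraries and none reached 1.5-fold. Scaled by total counts, day 12 against day 1 became 0.66 and passed the limit. The spread of Arntl beyond counting noise was 3.71% between libraries of a group, and 20% of genes had a smaller one.

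Clock (ENSMUSG00000029238, chromosome 5, 76209868 to 76304792), the usual partner of BMAL1, lay between 68.2 and 74.1 CPM at day 0, 54.2 and 70.5 CPM at day 1, and 57.6 and 60.5 CPM at day 12. Day 1 was the most scattered group and overlapped both others, while day 12 lay below every day 0 library. The log2 fold change was -0.19 ± 0.05 (edgeR adjusted p = 0.000579) at day 1 and -0.27 ± 0.05 (1.16e-05) at day 12, and -0.07 ± 0.05 (0.162) between the days.

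Npas2 (ENSMUSG00000026077, chromosome 1, 39193731 to 39363236), which can stand in for CLOCK, had the lowest level and the largest spread of the members, 14.7% beyond counting noise. Its levels were 2.68, 3.23, 2.84, 2.82 and 3.1 CPM at day 0, 1.17, 1.35, 1.28, 0.949 and 1.11 CPM at day 1, and 1.21, 2.19, 2.07, 2.02 and 1.26 CPM at day 12, from 68 to 338 counts per library. Day 0 lay above every other library, and at day 12 replicates 1 and 5 sat among the day 1 libraries while the other 3 sat between the groups. Npas2 fell by 1.32 on the log2 scale at day 1 (SE 0.156, edgeR adjusted p = 5.3e-08), further than all but 3.65% of genes, and fell by 0.76 at day 12 (SE 0.15, 7.8e-05). The day 12 call rested on replicates 1 and 5: without both the log2 fold change was -0.48 and under the limit, and with total count scaling it was -0.56. Day 12 against day 1 was 0.57 ± 0.16 (adjusted p = 0.00347), just under the limit, and passed it without day 1 replicate 2 (0.62) or 3 (0.60), or without day 12 replicate 1 (0.68) or 5 (0.67), and with scaling to total counts (0.74), the 4 reference genes (1.35) or Hprt and Tbp (0.907).

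The Per genes, which encode the repressors that shuttle with CRY, had nearly the same profile. Per1 (ENSMUSG00000020893, chromosome 11, 69095217 to 69109960) stood at 44.9, 40.2, 49.5, 43.3 and 39.4 CPM at day 0, 56.0, 62.4, 52.4, 58.4 and 57.2 CPM at day 1, and 38.2, 38.5, 39.1, 38.5 and 35.8 CPM at day 12. Every day 1 library was above every day 0 library, and every day 12 library lay just below every day 0 library. Its log2 fold change was 0.40 ± 0.05 (edgeR adjusted p = 2.19e-07) at day 1 and -0.20 ± 0.05 (0.00149) at day 12, both under the limit. From day 1 to day 12 Per1 fell by 0.59 (SE 0.0516, 3.68e-10), a call at the edge of the limit that was lost when day 1 replicate 2 (-0.56), replicate 4 of that group (-0.585) or day 12 replicate 5 (-0.57) was left out. Total count scaling (-0.42) ended it too.

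Per2 (ENSMUSG00000055866, chromosome 1, 91415982 to 91459324) stood at 19.8, 19.2, 18.3, 19.0 and 17.7 CPM at day 0, 25.1, 25.04, 25.6, 24.9 and 24.0 CPM at day 1, and 16.4, 15.4, 17.2, 16.5 and 14.8 CPM at day 12. The groups did not overlap, again with day 1 highest and day 12 lowest. The log2 fold change was 0.41 ± 0.04 (edgeR adjusted p = 8.57e-09) at day 1 and -0.23 ± 0.04 (5.97e-05) at day 12, and Per2 fell by 0.63 (SE 0.0437, 5.42e-12) from day 1 to day 12. That call held without any single library and was lost with total count scaling (-0.46).

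Per3 (ENSMUSG00000028957, chromosome 4, 151003652 to 151044665), whose window holds the pair of D-boxes printed above, ranged from 55.5 to 65.4 CPM at day 0, 75.6 to 82.8 CPM at day 1, and 52.5 to 57.4 CPM at day 12. Day 1 stood clear of both other groups, which overlapped each other. Its log2 fold change was 0.41 ± 0.04 (edgeR adjusted p = 1.11e-09) at day 1, -0.12 ± 0.04 (0.00944) at day 12 and -0.53 ± 0.04 (1.8e-11) between the days, none past the limit, and with total count scaling the day 12 value turned to 0.08. The shares of the 3 Per genes in their summed CPM per kb stayed close in all groups: the median share of Per1 was 37.3%, 37.2% and 35.6% at days 0, 1 and 12, and that of Per3 was 47.7%, 47.5% and 49.6%.

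Cry1 (ENSMUSG00000020038, chromosome 10, 85131700 to 85185064), a strong repressor of the CLOCK and BMAL1 pair, rose more than any other member at day 1. Its levels were 6.39, 6.35, 8.04, 7.47 and 7.92 CPM at day 0, 16.6, 14.9, 15.9, 17.3 and 15.2 CPM at day 1, and 10.2, 9.89, 10.4, 9.79 and 9.56 CPM at day 12. The groups did not overlap, and day 12 lay between day 0 and day 1. On the log2 scale Cry1 rose by 1.14 ± 0.07 at day 1 (2.21-fold, edgeR adjusted p = 1.19e-13), a value exceeded by 1.99% of genes. At day 12 the log2 fold change was 0.46 ± 0.07 (9.32e-07), under the limit, though it reached 0.66 and was called with total count scaling. From day 1 to day 12 Cry1 fell by 0.68 (SE 0.0643, 1.6e-09), or by 0.51 and uncalled with that scaling.

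**Figure D3:**
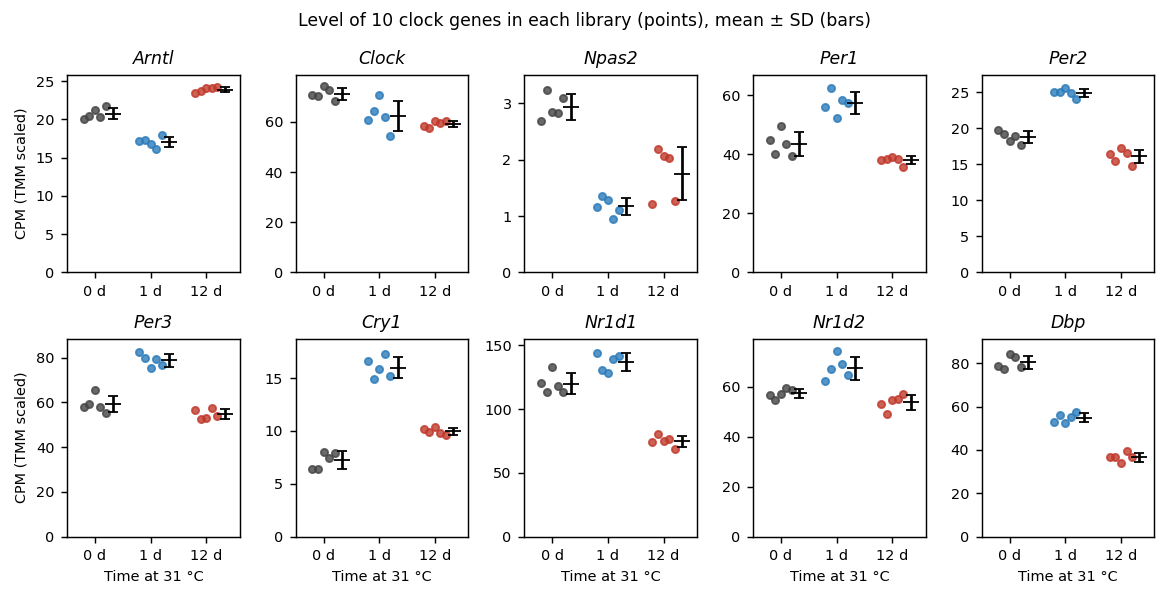
CPM (y axis, from 0) of each of the 10 clock genes in every library at 0, 1 and 12 days at 31°C, with the mean and SD of 5 libraries beside the points. The Per genes and Cry1 are highest at day 1, Dbp is lower at both times than at day 0, and Npas2 at day 12 splits into 2 libraries near 1.2 CPM and 3 near 2 CPM.

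The REV-ERB genes went apart at day 12. Nr1d1 (ENSMUSG00000020889, chromosome 11, 98767932 to 98775333) stood at 121, 114, 133, 118 and 113 CPM at day 0, 144, 130, 128, 139 and 142 CPM at day 1, and 74.1, 80.4, 74.9, 76.4 and 68.3 CPM at day 12. All day 12 libraries lay far below the other 10, and the ranges of days 0 and 1 overlapped. Its log2 fold change was 0.19 ± 0.04 (edgeR adjusted p = 0.000481) at day 1, and Nr1d1 fell by 0.68 at day 12 (SE 0.0449, 1.13e-12). Compared with day 1 it fell by 0.87 (SE 0.045, 2.24e-14). With total count scaling the day 12 value was -0.49 and not called, and on scaling to the reference genes it turned to 0.16 and the value between the days was -0.0817 and not called. The exons of Nr1d1 share 9.67% of their bases with Thra on the other strand, and how the counting treated strand is not given in the sources used here. Thra, a thyroid hormone receptor gene named because of that overlap, had log2 fold changes of 0.21 ± 0.03 at day 1 and -0.11 ± 0.03 at day 12.

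Nr1d2 (ENSMUSG00000021775, chromosome 14, 18204054 to 18239127) ranged from 54.8 to 59.6 CPM at day 0, 62.1 to 74.1 CPM at day 1, and 49.2 to 56.9 CPM at day 12. Day 1 stood above the others, and days 0 and 12 overlapped. The log2 fold change was 0.23 ± 0.04 (edgeR adjusted p = 2.91e-05) at day 1, -0.09 ± 0.04 (0.0471) at day 12 and -0.33 ± 0.04 (3.05e-07) between the days, and the day 12 value turned to 0.10 with total count scaling. The share of Nr1d1 in the summed CPM per kb of both receptors was 76.8% to 80% at day 0, 74.8% to 79.9% at day 1 and 67.3% to 73.7% at day 12.

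Dbp (ENSMUSG00000059824, chromosome 7, 45705088 to 45710203), the output factor, had its lowest levels at day 12 with TMM scaling. Its levels were 79.0, 77.5, 84.5, 82.8 and 78.4 CPM at day 0, 52.8, 56.0, 52.6, 55.1 and 57.6 CPM at day 1, and 36.7, 36.5, 33.8, 39.5 and 36.7 CPM at day 12. The groups stood wide apart. Dbp fell by 1.14 on the log2 scale at day 12 (SE 0.0381, edgeR adjusted p = 2.32e-18), to 0.455 of its day 0 level. The values at day 1 (-0.55 ± 0.04, 2.76e-12) and for day 12 against day 1 (-0.58 ± 0.04, 2.21e-12) stopped just short of 1.5-fold. The latter passed the limit without day 1 replicate 1 (-0.595) or 3 (-0.60) or day 12 replicate 4 (-0.61), and with DESeq2 (-0.589). On scaling to the reference genes the day 12 value was -0.296, not called, and that of day 12 against day 1 turned to 0.21 (edgeR adjusted p = 0.000168). Sphk2, a sphingosine kinase gene on the other strand, covers 29.3% of the exon bases of Dbp, and its reads could be mixed with those of Dbp if the counting ignored strand. Sphk2 ranged from 28.4 to 30.3 CPM at day 0, 22.0 to 24.2 CPM at day 1 and 21.1 to 24.3 CPM at day 12, with log2 fold changes of -0.36 ± 0.04 and -0.38 ± 0.04, and -0.02 ± 0.04 between the days.

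The balance between members moved with time at 31°C, given here as a description. The log2 ratio of Nr1d1 to Arntl CPM was 2.38 to 2.65 at day 0, 2.92 to 3.11 at day 1 and 1.5 to 1.77 at day 12. The share of Npas2 in the summed CPM per kb of Clock and Npas2 was 8.17% to 9.73% at day 0, 3.47% to 4.69% at day 1 and 4.66% to 8.2% at day 12. Cry1 made up 14.2% to 17.6% of the summed CPM per kb of both Cry genes at day 0, 20.8% to 24% at day 1 and 17.5% to 18.9% at day 12. Day 0 and day 1 did not overlap in any of these. Day 0 replicate 3 was the highest of its group for 6 of the 10 members (Clock, Per1, Per3, Cry1, Nr1d1 and Dbp) and the lowest for none.

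**Figure D4:**
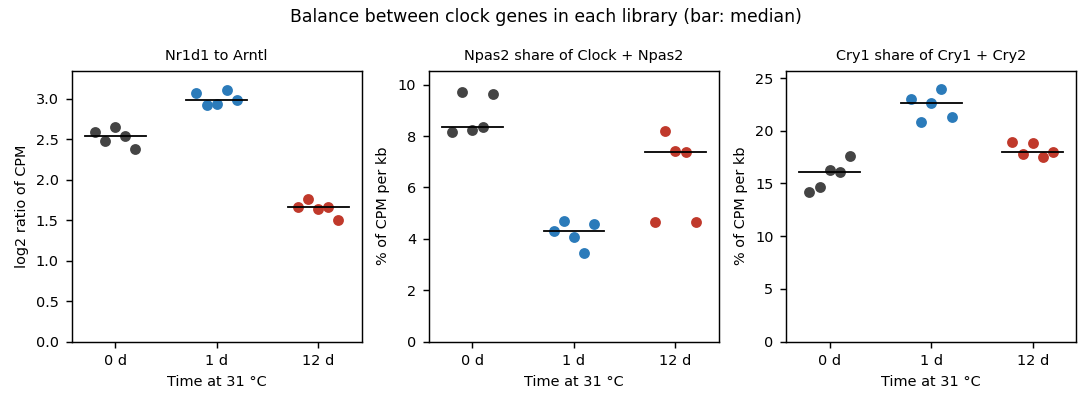
Balance between clock genes in every library, with the median of each group as a bar: the log2 ratio of Nr1d1 to Arntl CPM, and the percent of Npas2 and of Cry1 in the summed CPM per kb of the gene and its relative. The Nr1d1 to Arntl ratio is highest at day 1 and lowest at day 12, with no overlap between groups.

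For each member the most similar gene outside the 10 was found among 12122 genes by the root mean square difference of centred log2 CPM over the 15 libraries. The nearest to Cry1 was Gm129 at 0.104, the older symbol of Ciart, which encodes CHRONO, another repressor of the CLOCK and BMAL1 pair. The others were Yes1 for Arntl (0.0489), 2610101N10Rik (now U2surp) for Clock (0.0471), Haus8 for Npas2 (0.217), Tgfb1 for Per1 (0.0843), Abcc1 for Per2 (0.0751), Coro7 for Per3 (0.0697), Zfp395 for Nr1d1 (0.0657), Nkap for Nr1d2 (0.0495) and Tgoln1 for Dbp (0.0545). Among the members themselves Per1 and Per3 were the closest pair, at 0.0784. That was nearer than Tgfb1 was to Per1 but further than Coro7 was to Per3.

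Of 11 other clock genes, 2 rose and 0 fell at day 1, 2 rose and 3 fell at day 12, and 2 were higher and 3 lower at day 12 than at day 1, all by the edgeR test. For the count of 0, 3 were lower at an unadjusted p under 0.05, and DESeq2 called 0. These counts and those of the lists below are to be read against the shares of all genes called, given above for the members. Their median log2 fold change was 0.24 at day 1, -0.15 at day 12 and -0.55 between the days. Gm129 stood at 1.40 to 1.79 CPM at day 0, 3.34 to 4.02 CPM at day 1 and 2.13 to 2.43 CPM at day 12. It rose by 1.23 ± 0.10 at day 1 (adjusted p = 8.9e-11) and fell by 0.71 from day 1 to day 12 (9.18e-07), or stood at 0.08 with reference gene scaling. Its day 12 value against day 0 was 0.52 ± 0.10, under the limit. Cry2, the relative of Cry1, had values of 0.52 ± 0.03 and 0.21 ± 0.03, not called.

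Bhlhe40, Bhlhe41 and Rora fell at day 12, though Bhlhe41 (0.19) and Rora (0.02) turned on scaling to the 4 reference genes. Bhlhe40 stayed below 0, but its TMM value was near that of Dbp (-1.14), which lost its call with that scaling (-0.296). Bhlhe40 (DEC1), which competes for E-boxes, ranged from 211 to 260 CPM at day 0, 238 to 264 CPM at day 1 and 100 to 114 CPM at day 12, and fell by 1.13 (SE 0.0433, edgeR adjusted p = 2.96e-17). Bhlhe41 (DEC2) fell by 0.65 (6.4e-07). Rora, which encodes an activator of Arntl, fell by 0.82 (3.51e-11), and Rorb had a value of -0.25 ± 0.09 (0.013). At day 1 none of these 4 was called, with values from -0.27 for Rora to 0.24 for Bhlhe41.

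Relatives of Dbp had other profiles. Tef had log2 fold changes of 0.50 ± 0.03 (edgeR adjusted p = 3.6e-13) at day 1 and -0.06 ± 0.03 (0.0777) at day 12, neither called. Hlf, which lay under 1.03 CPM with 15 to 81 counts in every library, rose by 1.28 ± 0.30 (0.0005) at day 1 and by 1.89 ± 0.29 (2.43e-06) at day 12. Nfil3, which opposes these factors at D-boxes, had values of -0.26 ± 0.03 and -0.30 ± 0.03, and Arntl2, a relative of Arntl, 0.42 ± 0.06 and -0.15 ± 0.06, none called. Timeless, whose protein works mainly in DNA replication in mammals, had -0.49 ± 0.09 at day 1 and rose by 0.85 ± 0.09 (2.85e-09) at day 12.

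**Figure D5:**
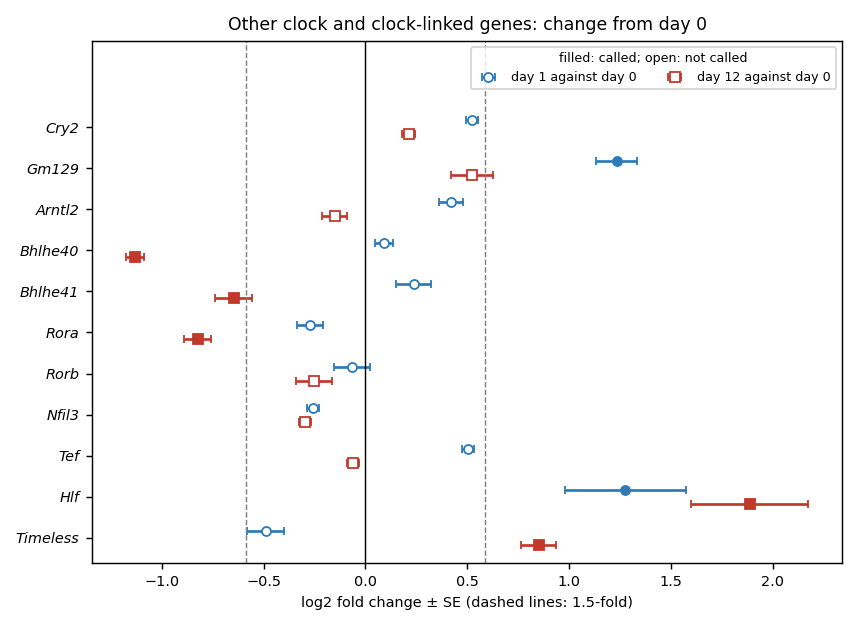
Log2 fold change from day 0 (x axis, with SE) of 11 other clock and clock-linked genes at day 1 (circles) and day 12 (squares), filled where called. Gm129 and Hlf lie right of the limit at day 1, and Bhlhe40, Bhlhe41 and Rora lie left of it at day 12, of which only Bhlhe40 stays below 0 on scaling to the 4 reference genes.

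Of 8 genes for the turnover of clock proteins, 0 rose and 1 fell in each of the 3 comparisons, with 5, 3 and 2 higher at an unadjusted edgeR p under 0.05 and 0 called higher by DESeq2 in each. Fbxl21, an F-box gene that acts on CRY, fell by 0.59 (SE 0.093, adjusted p = 5.01e-06) at day 1. Usp2, a deubiquitinase gene under clock control, fell by 0.68 (SE 0.0627, 5.51e-10) at day 12, but stood at 0.16 with reference gene scaling. Csnk1e, a kinase gene for PER proteins, had values of 0.49 ± 0.03 and 0.46 ± 0.03, under the limit with TMM scaling. Total count scaling raised the median of all genes at day 12 from 0.01 to 0.21, which may carry the latter past it.

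Of 12 textbook clock output genes, 1 rose and 1 fell at day 1, where 7.71% of all genes were called higher and 13.4% lower. At day 12, 1 rose and 5 fell, where 13% of all genes were called higher and 16.2% lower. Wee1, a cell cycle kinase gene driven by E-boxes, rose by 0.68 ± 0.06 (edgeR adjusted p = 1.33e-09) at day 1, and Ucp3 fell by 0.76 (0.00105). At day 12 Cdkn1a, a cell cycle inhibitor gene, fell by 1.34 (4.69e-22), Pdk4 by 1.24 (1.92e-13), Lpin1 by 1.16 (6.38e-19), Tsc22d3 by 1.1 (6.72e-18) and Ucp3 by 2.16 (1.83e-09), and Pnpla2, the gene of adipose triglyceride lipase, rose by 0.73 ± 0.03 (5.78e-16). Day 12 against day 1 had 0 higher and 6 lower, the latter being the 5 that fell at day 12 and Klf10 (-0.95), of which Tsc22d3 turned (0.14) with reference gene scaling. For the count of 0, 1 was higher at an unadjusted p under 0.05 and DESeq2 called 0. The calls of output genes are from TMM scaling. Reference gene scaling moved the median of all genes at day 12 to 0.85. Dbp, at -1.14 with TMM, lost its call there (-0.296), so output genes with falls near that size may too.

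Genes that answer to serum, cAMP and glucocorticoid are given because those signals reset clocks in culture. Of 9 immediate early genes, Nr4a1 rose (1.16 ± 0.12, edgeR adjusted p = 3.13e-09) and Fosb and Crem fell at day 1. At day 12 Egr1 (1.57 ± 0.05, 7.01e-19), Egr2 and Ier2 rose and Fosb fell. Fos had values of -0.09 ± 0.11 and 0.47 ± 0.10, and Sik1 of -0.56 ± 0.05 and -0.55 ± 0.05, not called. Of 6 glucocorticoid-responsive genes, Sgk1 and Dusp1 rose at both times, and Tsc22d3, also counted among the outputs, fell at day 12. Per1, itself a target of cAMP and glucocorticoid signalling, was called in neither comparison with day 0. The part of feeding and hormone signals in the clock gene values was not tested.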

How the data were processed

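RNA sequencing was done on 15 libraries of cultured mouse adipocytes, 5 per group. Per the labels and the submitters' processing notes, the authors aligned reads to mm10 with TopHat2 2.0.13 and Bowtie2 2.2.1 and counted with HTSeq. The deposited raw counts per gene were used. The authors also deposited regularized log2 values and DESeq2 tables of their comparisons (mean counts, fold changes, p-values), which were not used. The number of columns without a sample was 0.

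Counts were filtered with filterByExpr (minimum count 10), scaled by TMM and tested by quasi-likelihood in edgeR 4.0.16 (R 4.3.3), fitting the 15 libraries together with no covariate. SE is the log2 fold change divided by √F of the test. Levels are TMM-scaled CPM, and exon lengths and coordinates come from GENCODE release M21 (GRCm38, the same build as mm10). The labels gave the group and replicate number of each library. The members and lists were chosen with earlier results of these data known. A gene first fixed for the list of other clock genes was taken out of it and is not reported here. Genes named were the 10 members, genes of the lists, genes covering over 10% of a member's exon bases, and the nearest gene by profile; Thra was added after its values were seen. Older symbols were matched through RefSeq synonyms (Gm129 for Ciart, Emr1 for Adgre1). Same-numbered libraries did not deviate together (median correlation -0.01 over 15 pairs), so numbers were not taken to pair them. Alternatives were DESeq2 1.42.0 and other scalings, filters, covariates and libraries. In simulated data for day 12 against day 0 (14188 genes), 99 of 100 genes changed 2-fold and 93 of 100 changed 1.6-fold were called. Recovery at the spread of Npas2 (14.7% beyond counting noise) or Hlf (23.4%), or with another scaling, was not tested. A count of 0 allows up to 0.0225 to 0.0464 CPM (3 counts), which covers counting error only.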

Additional observations from a re-analysis of the deposited data

Results flagged for a closer look

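Per1 in day 12 replicate 5, at 35.8 CPM, lay far below the other 4 libraries of its group relative to their range. It was 1 of 30 groups tested for a stray library, and chance marks about 1 in 20.

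The changes at days 12 and 1 differed past the fold limit for 4 members, tested as day 12 against day 1 with edgeR. Of all genes 8.53% were called lower in that comparison, and with no fold limit 9 of 10 members passed the adjusted p. The log2 difference was -0.592 for Per1 (adjusted p = 3.68e-10), -0.633 for Per2 (5.42e-12), -0.68 for Cry1 (1.6e-09) and -0.871 for Nr1d1 (2.24e-14). Each was lower in 5 of 5 day 12 libraries than in every day 1 library, as were the uncalled Per3, Nr1d2 and Dbp. The share of all genes that separate in this way was not counted. On scaling to the 4 reference genes Per1 (0.196), Per2 (0.157) and Cry1 (0.11) turned and Nr1d1 (-0.0817) lost its call.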

How the results depend on the processing

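The replicate number as a block changed no call: 1 higher and 1 lower at day 1, 3 lower at day 12 and 4 lower for day 12 against day 1, as without it. The library number series as a covariate changed none either. RLE scaling and DESeq2 added Dbp to the last count (-0.589 in each). Leaving out 1 library gave 440 of 450 member values on the same side of the limit and turned none; the count of members higher for day 12 against day 1 ranged from 0 to 1 and that of members lower from 3 to 5. Of 357 values under the other alternatives, 281 kept call and direction. With no fold limit 6 members were higher and 4 lower at day 1, 2 and 8 at day 12, 2 and 7 between the days.

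Among scalings, total counts gave 1 higher and 1 lower at day 12, and 2 and 1 between the days; Per3 (0.077) and Nr1d2 (0.099) turned at day 12 and Clock (0.0994) between the days. Gapdh and B2m, among the 4 reference genes in the table, were called lower at day 12 with TMM scaling. The 4 reference genes moved the median of all genes to 0.85 there. They gave 6 higher and 0 lower at day 12 and 3 and 0 between the days, and turned Clock (0.573), Npas2 (0.0778), Per1 (0.643), Per2 (0.612), Per3 (0.722), Nr1d1 (0.159) and Nr1d2 (0.744) at day 12, and Clock (0.717), Per1 (0.196), Per2 (0.157), Per3 (0.262), Cry1 (0.11), Nr1d2 (0.462) and Dbp (0.207) between the days; Dbp at day 12 (-0.296) and Nr1d1 between the days (-0.0817) lost their calls. Hprt and Tbp alone, chosen after seeing the data, moved the median of all genes to -0.08 at day 1 and to 0.27 at day 12. With this pair the members called lower numbered 2 at day 1. Day 12 had 1 member called in each direction, and day 12 against day 1 had 2 called higher and 0 lower. Per1 (0.0645), Per2 (0.0343), Per3 (0.144) and Nr1d2 (0.165) turned at day 12. Clock (0.265) and Nr1d2 (0.0087) turned between the days, where Nr1d1 (-0.536) lost its call. All genes called at day 12 split into 9713 higher and 643 lower with 4 reference genes and 3563 and 1509 with Hprt and Tbp; for day 12 against day 1 the split was 1510 and 1219, or 2248 and 843 with total counts.

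Within the larger library number series (11 libraries), 2 were lower at day 1, Dbp (-0.59) joining, and Per1 lost its call between the days (-0.561), as it did at a mean of at least 10 CPM (-0.565). Leaving out both day 12 replicates 1 and 5, also chosen after seeing the data, left 1 higher between the days, Npas2 at 0.84. The lowest counts behind a member or other clock gene named here were 15 for Hlf and 68 for Npas2. Lower counts also stood behind Ucp3 (23 at day 12) and Egr2 (9 at day 0), and Egr2 overlapped between days 0 and 12.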
